A study of Mus musculus with 18 samples.

Results

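The experiment asks how the transcripts of normal blood progenitors differ after the compound labelled RE and after its vehicle. Wild-type (WT) mouse bone marrow cells selected for cKit, the surface receptor that marks stem and progenitor cells, had received RE or DMSO, and RNA-seq libraries were made from each. The members are the 3 RE and 3 DMSO libraries of WT cells, 6 of the 18 libraries of the series, and all genes of the deposited count table entered the comparison. The other libraries are 3 WT libraries given C16, a second compound, and 3 each of RE, C16 and DMSO from cKit-selected marrow of mice labelled AE9a, a truncated form of the AML1-ETO leukaemia fusion. WT cells carry no such label, and no other allele or agent is named for any group. The labels give no dose, exposure time, strain, sex or age. Nor do they state that replicates are different mice, so the spread behind the p-values may be technical.

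The study names inhibition of WDR5 and of MLL1, and the sources used here do not say which of RE and C16 acts on which. As background, MLL1 (encoded by Kmt2a) is a histone H3 lysine 4 methyltransferase that works in a complex with WDR5, RBBP5, ASH2L and DPY30, and menin (Men1) tethers it to chromatin. WDR5 binds a short motif of MLL1 and stabilises the complex. In blood progenitors MLL1 and menin keep the posterior HOXA genes and other regulators of immature cells, such as Mecom, active, and these genes are shut down as cells mature.

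All 6 libraries held between 16053727 and 18931774 fragments assigned to genes. Of 41079 genes in the table, 26543 had a fragment in some WT library and 15046 had enough counts to be tested. Levels are fragment counts scaled to library size (CPM), which compare a gene between libraries and not with genes of another length. Kit itself stood at 216, 85.2 and 190.0 CPM in the RE libraries against 125, 60.4 and 129.8 CPM in the DMSO libraries. Runx1t1, the part of the fusion that normal marrow hardly expresses, was at most 0.392 CPM in any WT library, and Nanog, named in the study's title, had 0 fragments in all 9. A count of 0 allows up to 0.158 to 0.187 CPM in the 6 libraries, at 3 fragments each and for counting error only.

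Replicate 2 stood apart from replicates 1 and 3 under every treatment. The first principal component of the 9 WT libraries held 58.6% of the variance and separated the libraries numbered 2 from the rest. The root mean square log2 difference over tested genes was 0.411 between RE 2 and DMSO 2, against 0.824 between RE 2 and RE 1 and 0.801 between RE 2 and RE 3. Genes of maturing neutrophils summed to 4380, 26280 and 3392 CPM in RE replicates 1, 2 and 3, against 3582, 12060 and 3268 CPM in DMSO replicates 1, 2 and 3. Megakaryocyte and platelet genes summed to 5259, 901 and 5870 CPM in the RE libraries, against 4003, 714 and 3574 CPM in the DMSO libraries. Replicate 2 carried more neutrophil and fewer platelet transcripts with either treatment. In bulk RNA, more cells of a type and more RNA per cell cannot be told apart. The library labelled WT C16 replicate 2 lay nearer to AE9a libraries than to those of its own label. Over the 14080 genes tested in both genotypes it lay 0.474 to 0.504 from the 3 AE9a C16 libraries. From the other WT C16 libraries it lay 0.885 to 0.934. Runx1t1 was nevertheless at 0 CPM in it, against 33.6 to 46.3 CPM in the AE9a RE and DMSO libraries. The reason for its position was not tested. Over the same 14080 genes RE 2 lay 0.771 to 0.79 from the other RE libraries and 0.899 to 0.989 from AE9a RE libraries, and DMSO 2 lay 0.662 to 0.675 from the other DMSO libraries and 0.804 to 0.887 from AE9a DMSO libraries.

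**Figure D1:**
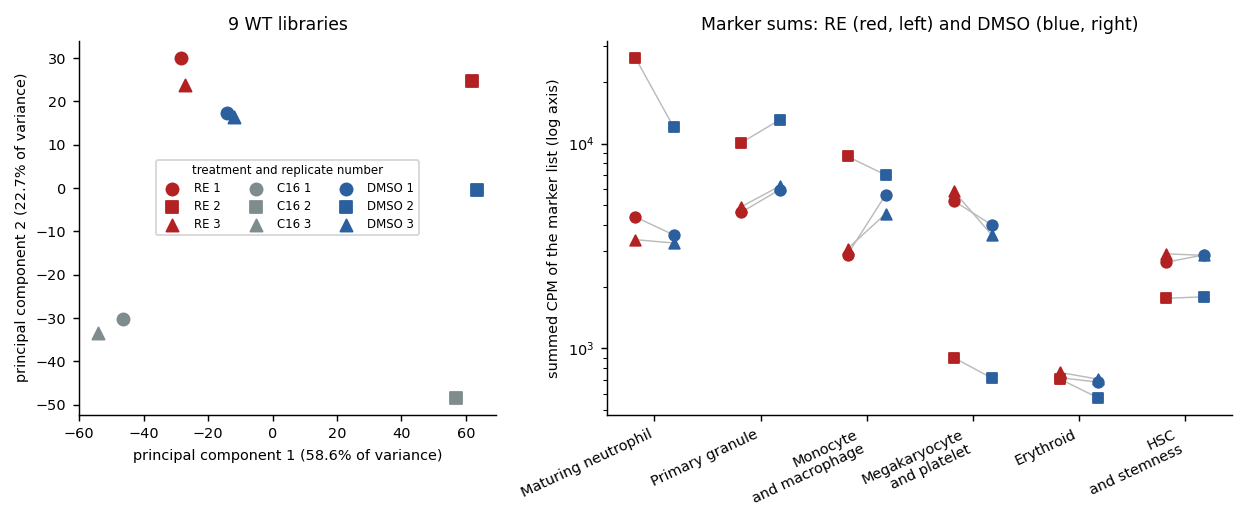
Left: the 9 WT libraries on the first and second principal components of log2 CPM (axes give the share of variance), coloured by treatment, with circle, square and triangle for replicates 1, 2 and 3. Right: CPM summed over marker lists on a log axis, RE left of DMSO, lines joining the same number. The squares, replicate 2, sit far to the right on the first component and are high for neutrophil and low for platelet genes with RE and with DMSO.

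Because of that split, changes were tested without and with the replicate number as a block. Without it (the unpaired fit), edgeR's quasi-likelihood test called 4 genes, all lower with RE: Adgrl4, Hoxa6, Arhgap32 and Tcf4. That is 0.0266% of tested genes, 0 genes rose, and 665 genes had an unadjusted p under 0.05. With it (the paired fit), 46 genes rose (0.306%) and 31 fell (0.206%), 37 and 18 of them by at least 2-fold, at the threshold of 0.05 on Benjamini-Hochberg adjusted p over all tested genes. The median log2 change over all genes was 0.02 without and 0.01 with the block. The 77 paired calls include the 4 unpaired ones. Of the fallers, 31 of 31 were lower in all 3 same-numbered pairs, where 21.1% of tested genes were. Of the risers, 45 of 46 were higher in all 3 pairs, where 23.7% of tested genes were. RE and DMSO libraries did not overlap for 24 of the 31 fallers and 26 of the 46 risers, against 6.47% of tested genes with RE lower and 6.71% with RE higher. The calls came from these same libraries, so these comparisons were largely fixed by the selection and lend the calls no separate support.

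The number of calls depended strongly on which libraries entered. In the paired fit restricted to the 6 RE and DMSO libraries, 435 genes rose (2.97%) and 209 fell (1.43%), and all 77 were among them. In the fit without the 3 WT libraries numbered 2, 644 rose (4.24%) and 575 fell (3.78%), among them all 31 fallers and 41 of the 46 risers. With only the library labelled WT C16 replicate 2 left out, a choice made after its position had been seen, 737 genes rose in the paired fit (4.76%) and 411 fell (2.65%), all 77 included. In the other direction, leaving out RE 1, RE 2 or RE 3 brought the paired count to 0, 7 and 25 genes, and leaving out DMSO 1, DMSO 2 or DMSO 3 to 2, 1 and 0. Adgrl4 kept its paired call in 4 of these 6 fits and Arhgap32 in 3, and none of the 77 changed sign in any of them. "Fell" and "rose" below refer to the paired fit of the 9 WT libraries unless another is named, and log2 changes are RE minus DMSO, ± standard error, with 3 libraries per group and edgeR's adjusted p. Differences of single pairs are on the log2(CPM + 0.5) scale, which understates the change of low genes.

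Adgrl4, Arhgap32 and Tcf4 fell with and without the block, by similar amounts in each pair. Adgrl4 (chromosome 3, 151143519 to 151250718, GRCm39) encodes an adhesion G protein-coupled receptor best known from blood vessels. It had 1.18, 1.23 and 1.79 CPM in RE replicates 1, 2 and 3, against 17.3, 12.3 and 19.6 CPM in DMSO replicates 1, 2 and 3. All RE libraries lay under all DMSO libraries, with means of 1.4 ± 0.339 CPM with RE and 16.4 ± 3.69 CPM with DMSO (SD, n = 3 each) and pair differences of −3.41, −2.89 and −3.13. The log2 change was −3.54 ± 0.24, adjusted p = 0.0068 unpaired and −3.54 ± 0.22, adjusted p = 0.0061 paired. Arhgap32 (chromosome 9, 31927921 to 32176061), a GTPase-activating protein, had 4.87, 4.94 and 4.39 CPM in RE replicates 1, 2 and 3, against 15.9, 18.8 and 16.6 CPM in DMSO replicates 1, 2 and 3. Its log2 change was −1.85 ± 0.14, adjusted p = 0.0075 unpaired and −1.85 ± 0.13, adjusted p = 0.0067 paired, and the 3 pairs gave −1.61, −1.82 and −1.80. Tcf4, the E protein that plasmacytoid dendritic cells depend on, had 23, 24.2 and 24.6 CPM in RE replicates 1, 2 and 3, against 45.3, 43.3 and 43.8 CPM in DMSO replicates 1, 2 and 3. The groups were separate, and the log2 change was −0.88 ± 0.07, adjusted p = 0.011 unpaired and −0.88 ± 0.07, adjusted p = 0.012 paired. Tcf4 shares exonic bases with Gm31439, whose reads cannot be told apart from its own. In the unpaired fits that left out a library, Adgrl4 lost its call without RE 1, RE 2 or DMSO 1, and Arhgap32, Tcf4 and Hoxa6 lost theirs in all 6.

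HOXA genes formed a group among those that fell. Hoxa9 (chromosome 6, 52200077 to 52203169), a homeodomain factor that sustains self-renewal of progenitors, had 0.56, 0.845 and 0.705 CPM in RE replicates 1, 2 and 3, against 3.26, 5.14 and 3.68 CPM in DMSO replicates 1, 2 and 3. Hoxa7 (chromosome 6, 52191471 to 52198757) had 1.46, 0.52 and 1.46 CPM in RE replicates 1, 2 and 3, against 8.04, 6.53 and 7.66 CPM in DMSO replicates 1, 2 and 3, and Hoxa6 (chromosome 6, 52181838 to 52185652) had 0.168, 0.26 and 0.217 CPM in RE replicates 1, 2 and 3, against 1.86, 1.9 and 1.79 CPM in DMSO replicates 1, 2 and 3. For each of the 3 genes all RE libraries lay under all DMSO libraries, replicate 2 included. Hoxa6 changed by −3.07 ± 0.29, adjusted p = 0.022 unpaired and −3.08 ± 0.30, adjusted p = 0.02 paired. Hoxa9 changed by −2.50 ± 0.25, adjusted p = 0.02 and Hoxa7 by −2.67 ± 0.37, adjusted p = 0.037 in the paired fit, and neither passed unpaired (adjusted p = 0.24 and 0.24). Fragments were counted without strand, and Hoxa7 shares exonic bases with Mira and Hoxa9 with Gm57855, so reads of these neighbours cannot be told apart from their own.

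The promoters of Adgrl4 and Hoxa6, both called with and without the block, are shown for their content of CG, the dinucleotide to which the CXXC domain of MLL1 binds when it is unmethylated. The 250 bases before the RefSeq start are given 5′ to 3′ on the gene's strand (build GRCm38.p6), with CG in capitals: Adgrl4 at chr3:151437632-151437881 (plus strand) and Hoxa6 at chr6:52208673-52208922 (minus strand).
Adgrl4: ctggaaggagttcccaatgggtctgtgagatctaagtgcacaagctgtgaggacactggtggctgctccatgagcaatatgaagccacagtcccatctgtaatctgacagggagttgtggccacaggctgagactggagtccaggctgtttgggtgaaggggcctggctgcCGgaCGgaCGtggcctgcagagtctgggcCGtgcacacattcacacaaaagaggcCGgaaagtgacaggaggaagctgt
Hoxa6: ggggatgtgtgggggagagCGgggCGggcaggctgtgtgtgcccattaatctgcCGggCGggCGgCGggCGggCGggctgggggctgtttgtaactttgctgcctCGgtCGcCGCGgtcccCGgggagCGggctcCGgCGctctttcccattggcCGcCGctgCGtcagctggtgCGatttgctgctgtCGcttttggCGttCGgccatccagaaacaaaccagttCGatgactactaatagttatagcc
CG reads the same on both strands and was counted without overlaps. The Hoxa6 window holds 24, a number reached by 12% of 32851 RefSeq promoter windows. The Adgrl4 window holds 5, a number reached by 55.6% of all windows, whether or not their genes were tested. Among windows of tested genes alone the quartiles were 6 and 22, so 5 lay under the lower and 24 over the upper. Over the 34 windows of the 23 fallers that had one, the median was 8, over the 45 windows of 37 risers 13, and over 14424 windows of tested genes 14. These windows were matched by gene symbol, and their RefSeq starts can differ from the starts of the counted genes.

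Of 20 genes listed as HOXA members and regulators kept on by MLL and menin, 17 could be tested. In the paired fit 5 fell (Hoxa6, Hoxa7, Hoxa9, Eya1 and Mecom), beside 0.206% of all tested genes, and 0 rose, with a median log2 change of −0.91 beside 0.01 over all genes. Hoxa6 was the 1 unpaired call. All 3 pairs were lower for 12 of the 17 genes, beside 21.1% of all tested genes, and 8 lay lower with no overlap between groups, beside 6.47%. The number that fell was 6 in the paired fit of 6 libraries (1.43% of all genes fell), 9 of 16 without replicate 2 (3.78%) and 9 of 17 in the paired fit without the library labelled WT C16 replicate 2 (2.65%). Eya1, a transcriptional co-activator and phosphatase, had 0.953, 0.26 and 0.597 CPM in the RE libraries against 5.34, 2.85 and 4.08 CPM in the DMSO libraries (−2.75 ± 0.30, adjusted p = 0.023). Mecom, the EVI1 zinc finger factor of stem cells, had 1.06, 0.195 and 1.25 CPM in the RE libraries against 5.18, 1.62 and 5.62 CPM in the DMSO libraries (−2.28 ± 0.35, adjusted p = 0.049), lower in replicate 2 than in the others with either treatment. Of members that missed the threshold, Hoxa5 had 0.504, 0.325 and 0.434 CPM in the RE libraries against 1.29, 1.62 and 2.14 CPM in the DMSO libraries (−1.96 ± 0.31, adjusted p = 0.052) and Hoxa3 0.448, 0.39 and 0.597 CPM in the RE libraries against 1.74, 1 and 1.23 CPM in the DMSO libraries (−1.45 ± 0.31, adjusted p = 0.1). Hoxa10, too low to test, had 0, 0.065 and 0.217 CPM in the RE libraries against 0.506, 0.67 and 1.28 CPM in the DMSO libraries. Other partners and targets of the HOXA program did not pass. Meis1, the HOXA9 cofactor, had 58.4, 12.7 and 67.5 CPM in the RE libraries against 59.6, 18.7 and 55.3 CPM in the DMSO libraries (−0.08 ± 0.14, adjusted p = 0.87), and the groups overlapped. Mef2c changed by −0.55 ± 0.18, adjusted p = 0.28, the cytokine receptor gene Flt3 by −0.91 ± 0.41, adjusted p = 0.43 and Pbx3 by −0.28 ± 0.15, adjusted p = 0.51. In the fit without replicate 2, Mef2c passed (adjusted p = 0.021), and Flt3 and Pbx3 did not (0.19 and 0.43).

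**Figure D2:**
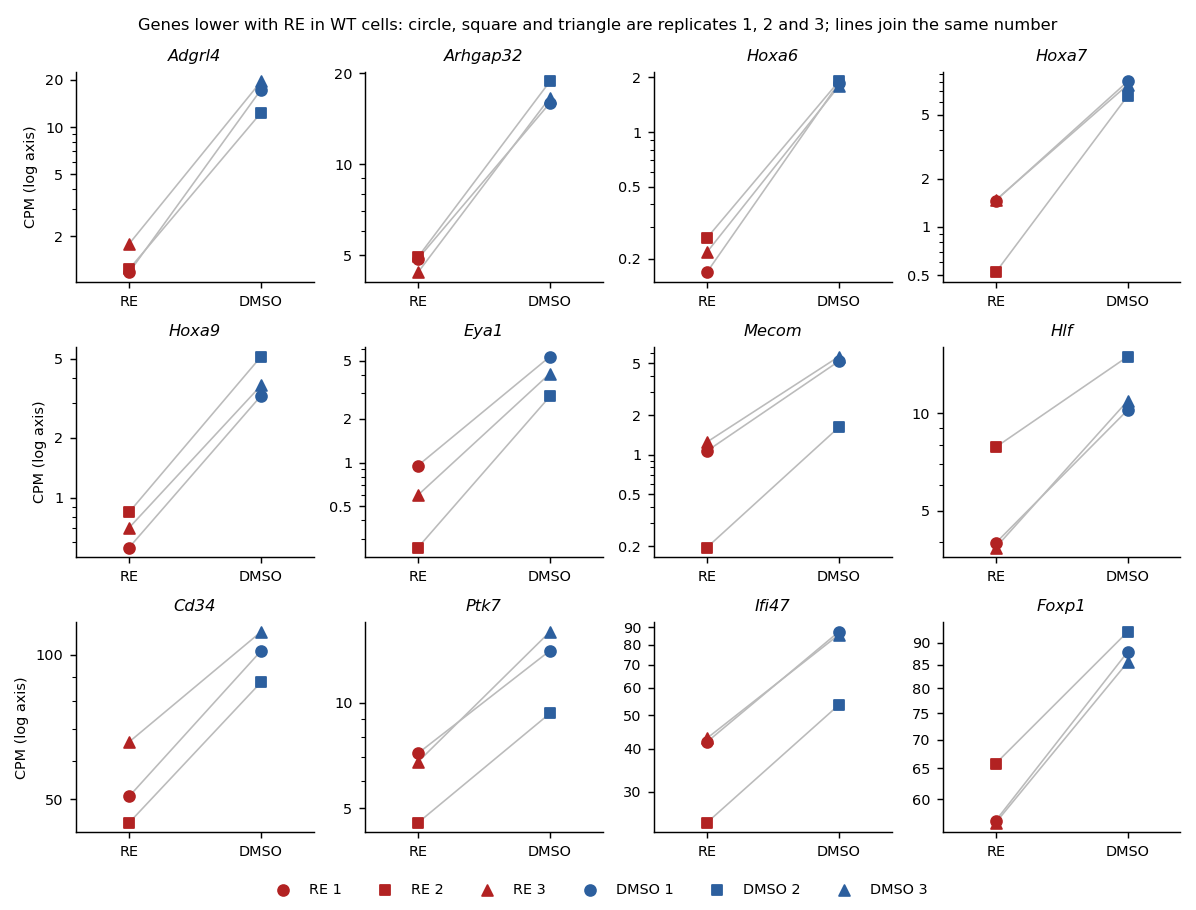
CPM on a log axis for 12 genes that fell with RE in the paired fit, RE left and DMSO right in each panel, with circle, square and triangle for replicates 1, 2 and 3 and lines joining the same number. All lines run upward from RE to DMSO, and for Mecom, Hlf, Ptk7 and Ifi47 the squares lie apart from the rest at both ends.

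Of 28 genes listed as marks of stem cells, 3 fell (Mecom, Hlf and Cd34) and 0 rose, beside 0.206% and 0.306% of all tested genes. Hlf, a bZIP factor of the most immature cells, had 3.98, 7.86 and 3.85 CPM in RE replicates 1, 2 and 3, against 10.2, 15 and 10.9 CPM in DMSO replicates 1, 2 and 3. Its pairs gave −1.26, −0.89 and −1.39 and its log2 change was −1.25 ± 0.17, adjusted p = 0.037, with higher levels in replicate 2 throughout. Cd34, the sialomucin used to sort progenitors, had 50.6, 44.6 and 65.8 CPM in RE replicates 1, 2 and 3, against 102, 87.7 and 112 CPM in DMSO replicates 1, 2 and 3 (−0.91 ± 0.12, adjusted p = 0.033), with no overlap. The median of the list was −0.11, with 8 of 28 genes lower and 7 higher in all 3 pairs, beside 21.1% and 23.7% of all tested genes. In the paired fit of 6 libraries 7 of its genes fell and 1 rose, beside 1.43% and 2.97% of all tested genes. The paired fit without the library labelled WT C16 replicate 2 gave the same counts, beside 2.65% and 4.76%. The riser with 6 libraries was Kit, with 164 ± 69 CPM with RE and 105 ± 38.7 CPM with DMSO (SD, n = 3 each). Its log2 change was 0.62 ± 0.28, adjusted p = 0.43 in the paired fit of 9 libraries and 0.61 (adjusted p = 0.017) in that of 6. Lmo2, a stem cell LIM protein gene, had 148, 124 and 189 CPM in the RE libraries against 249, 186 and 241 CPM in the DMSO libraries (−0.56 ± 0.09, adjusted p = 0.052). Gm38515, which shares exonic bases with Lmo2, fell (−0.57 ± 0.09, adjusted p = 0.048), and without strand their reads cannot be told apart.

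Other genes that fell had mixed roles. Ptk7, a receptor of planar cell polarity without kinase activity, had 7.17, 4.55 and 6.78 CPM in the RE libraries against 14.1, 9.32 and 15.9 CPM in the DMSO libraries (−1.08 ± 0.14, adjusted p = 0.035). Rhobtb3 had 4.37, 3.83 and 7.27 CPM in the RE libraries against 14.6, 10.3 and 15 CPM in the DMSO libraries (−1.39 ± 0.16, adjusted p = 0.025), and Rhoj, a small GTPase known from endothelium, had 42.1, 11.8 and 44 CPM in the RE libraries against 70.1, 30.1 and 76.2 CPM in the DMSO libraries (−0.95 ± 0.14, adjusted p = 0.045). Ttpa, the vitamin E transfer protein of liver, had 1.51, 2.92 and 1.46 CPM in the RE libraries against 4.67, 6.25 and 5.87 CPM in the DMSO libraries (−1.57 ± 0.23, adjusted p = 0.042). Il6st encodes gp130, the signalling chain shared by receptors of the IL-6 family, and had 69.7, 118 and 75.2 CPM in the RE libraries against 124, 179 and 115 CPM in the DMSO libraries (−0.68 ± 0.10, adjusted p = 0.042). It was the 1 of 18 listed cytokine receptor genes to fall, and 0 rose, beside 0.206% and 0.306% of all tested genes. In the paired fit of 6 libraries 1 fell and 3 rose, beside 1.43% and 2.97%. Without replicate 2, 4 fell and 4 rose, beside 3.78% and 4.24%.

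Ifi47, Mndal and Gvin-ps6 belong to families induced by interferon, and all 3 fell. Ifi47, a GTPase gene, had 41.7, 24.4 and 42.8 CPM in RE replicates 1, 2 and 3, against 87.2, 53.5 and 85.5 CPM in DMSO replicates 1, 2 and 3 (−1.07 ± 0.08, adjusted p = 0.0069), with no overlap between groups. Mndal of the Ifi200 family had 23.9, 17.7 and 21.2 CPM in the RE libraries against 44.4, 33.6 and 43 CPM in the DMSO libraries (−0.94 ± 0.10, adjusted p = 0.024). Mndal and Gvin-ps6 lie in families of near-identical copies, which makes their counts uncertain. None of the 28 tested genes of the interferon list passed in either direction, and 17 of the 28 were higher in all 3 pairs, beside 23.7% of all tested genes. Its median was 0.24. In the paired fit of 6 libraries 2 of its genes rose, beside 2.97% of all tested genes. Without replicate 2, 1 rose and 1 fell, beside 4.24% and 3.78%. In the paired fit without the library labelled WT C16 replicate 2, 5 rose, beside 4.76%. Sesn1, a stress sensor induced by p53, had 23, 21.2 and 24.9 CPM in the RE libraries against 38.9, 29.9 and 38 CPM in the DMSO libraries (−0.62 ± 0.09, adjusted p = 0.037). It was the 1 call among 30 p53 targets, where 0.206% of all tested genes fell. Foxp1, a forkhead factor, had 56.8, 65.8 and 56.5 CPM in the RE libraries against 87.9, 92.6 and 85.6 CPM in the DMSO libraries (−0.57 ± 0.07, adjusted p = 0.03). Low genes that fell include Nrap (−2.44), Sgip1 (−2.31) and Trdc (−1.83), each under 5 CPM in all 6 libraries.

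None of the listed genes that encode the WDR5, MLL and menin complexes passed in edgeR's fits. Of 24 tested, 0 rose and 0 fell in the unpaired and paired fits, with medians of 0.00. Of all tested genes 0.0266% fell unpaired, and 0.306% rose and 0.206% fell paired. In the paired fit of 6 libraries 0 of the 24 passed, beside 2.97% and 1.43%. Without replicate 2 again 0 passed, beside 4.24% and 3.78%. The paired fit without the library labelled WT C16 replicate 2 gave 0 too, beside 4.76% and 2.65%. Among 24 genes, counts of 0 lie near these shares. In AE9a cells 1 rose and 8 fell, beside 12.2% and 17.3% of all genes tested in both genotypes. Wdr5 had 133, 167 and 147 CPM in the RE libraries against 142, 163 and 142 CPM in the DMSO libraries (−0.01 ± 0.08, adjusted p = 0.98), Kmt2a had 188, 158 and 187 CPM in the RE libraries against 181, 156 and 192 CPM in the DMSO libraries (0.01 ± 0.06, adjusted p = 0.96) and Men1 had 72, 104 and 75.6 CPM in the RE libraries against 74.2, 104 and 73.4 CPM in the DMSO libraries (0.00 ± 0.07, adjusted p = 0.99). Their signs depended on the fit. Mllt6, which encodes AF17, a fusion partner of MLL, was outside that list and rose, with 93.4, 77.9 and 78.9 CPM in the RE libraries against 50.5, 39.6 and 48.1 CPM in the DMSO libraries (0.85 ± 0.12, adjusted p = 0.035).

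Ccl22, Ccr7 and Fscn1 rose, and are described together after their values had been seen. Ccl22, a chemokine of activated dendritic cells, had 222, 37.7 and 66.2 CPM in RE replicates 1, 2 and 3, against 28.4, 8.65 and 20.6 CPM in DMSO replicates 1, 2 and 3 (2.31 ± 0.28, adjusted p = 0.029). Ccr7, the receptor that guides such cells to lymph nodes, had 109.5, 22.5 and 37.6 CPM in RE replicates 1, 2 and 3, against 20.8, 4.63 and 14.9 CPM in DMSO replicates 1, 2 and 3 (2.01 ± 0.22, adjusted p = 0.024). Fscn1, the actin bundler of their dendrites, had 131, 23.1 and 41.3 CPM in RE replicates 1, 2 and 3, against 25.5, 4.97 and 17.8 CPM in DMSO replicates 1, 2 and 3 (1.94 ± 0.29, adjusted p = 0.045). RE 1 stood highest and DMSO 2 lowest for all 3 genes, and each RE library exceeded the DMSO library of its own number. The groups did not overlap for Ccl22 and Ccr7, while for Fscn1 RE 2 lay under DMSO 1.

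Cacnb3, a calcium channel subunit, had 69.8, 9.88 and 21.5 CPM in the RE libraries against 16.3, 2.96 and 8.88 CPM in the DMSO libraries (1.74 ± 0.24, adjusted p = 0.039), and Nr4a3, an orphan nuclear receptor of the immediate early class, had 34.2, 6.43 and 12.3 CPM in the RE libraries against 4.89, 1.79 and 4.13 CPM in the DMSO libraries (2.13 ± 0.27, adjusted p = 0.03). RE 1 was again highest and DMSO 2 lowest in both, and the groups overlapped for Cacnb3 and not for Nr4a3. Traf1, an adaptor of TNF receptors, had 47.2, 15.8 and 32.2 CPM in the RE libraries against 18.6, 6.25 and 16.9 CPM in the DMSO libraries (1.20 ± 0.13, adjusted p = 0.022). It was the 1 call among 26 NF-κB and inflammatory genes, where 0.306% of all tested genes rose. Of the 26, 15 were higher in all 3 pairs (23.7% of all tested genes) and 7 rose in the paired fit of 6 libraries (2.97%). Tnfrsf9, the 4-1BB receptor, had 78.9, 21.2 and 52.9 CPM in the RE libraries against 24.4, 8.32 and 24.1 CPM in the DMSO libraries (1.41 ± 0.18, adjusted p = 0.035), and Icosl, a costimulatory ligand, 37.9, 32.1 and 25 CPM in the RE libraries against 18.2, 20.0 and 15.3 CPM in the DMSO libraries (0.82 ± 0.12, adjusted p = 0.037). Cd83, a maturation marker, missed the threshold with 38.1, 6.3 and 11 CPM in the RE libraries against 8.33, 1.79 and 5.62 CPM in the DMSO libraries (1.69 ± 0.30, adjusted p = 0.065), as did Relb (0.95 ± 0.21, adjusted p = 0.11). Without the libraries numbered 2, Ccl22, Ccr7 and Fscn1 passed (adjusted p = 0.016, 0.026 and 0.033) and Cacnb3 did not (0.053).

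Of 19 tested dendritic cell and MHC class II genes 0 rose and 1, Tcf4, fell, beside 0.306% and 0.206% of all tested genes. Their median log2 change was 0.13. The list of 20 summed to 1212, 933 and 900 CPM in RE replicates 1, 2 and 3, against 1418, 709 and 1078 CPM in DMSO replicates 1, 2 and 3. No gene of the list was at 0 in all WT libraries. The part that dendritic cell number had in the rise of Ccl22, Ccr7 and Fscn1 was not tested.

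The stefin genes of chromosome 16 stood out by level in replicate 2. Cstdc5 had 10.9, 656 and 11.6 CPM in RE replicates 1, 2 and 3, against 2.02, 46.7 and 1.94 CPM in DMSO replicates 1, 2 and 3, and Stfa1 had 12.6, 432 and 10.9 CPM in RE replicates 1, 2 and 3, against 1.8, 34.8 and 2.96 CPM in DMSO replicates 1, 2 and 3. Both encode stefin A-like cysteine protease inhibitors known from granulocytes. Their log2 changes were 3.17 ± 0.31, adjusted p = 0.02 and 2.93 ± 0.37, adjusted p = 0.03, and each pair was higher with RE. The copies are nearly identical, so which of them gave the reads is uncertain. In the unpaired fit without RE 2 their sign turned, to −0.59 for Cstdc5 and −0.17 for Stfa1; that fit keeps replicate 2 in the DMSO group and not in the RE group. Stfa1 was the 1 call among 20 tested genes of maturing neutrophils, where 0.306% of all tested genes rose. That list summed to more with RE in each pair, as given above. The median of its genes' log2 differences was 1.10 in pair 2, 0.16 in pair 1 and 0.06 in pair 3. The part of neutrophil content in the stefin rise was not tested. Pga5, a pepsinogen gene, had 12.3, 10.3 and 9.49 CPM in RE replicates 1, 2 and 3, against 1.57, 1.51 and 1.33 CPM in DMSO replicates 1, 2 and 3 (2.86 ± 0.37, adjusted p = 0.032). Its 3 RE libraries were close to each other and all above the DMSO libraries.

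Fgfr1, Igfbp5, Axin2 and Cdkn2a also rose. Fgfr1, a fibroblast growth factor receptor, had 26.5, 16 and 28.3 CPM in RE replicates 1, 2 and 3, against 7.48, 1.34 and 6.54 CPM in DMSO replicates 1, 2 and 3 (2.36 ± 0.29, adjusted p = 0.03), with no overlap. Igfbp5, which binds insulin-like growth factors, had 33.5, 2.21 and 5.97 CPM in RE replicates 1, 2 and 3, against 0.844, 0.168 and 0.766 CPM in DMSO replicates 1, 2 and 3 (4.29 ± 0.66, adjusted p = 0.049), with RE 1 above all other libraries. Axin2, a target and inhibitor of Wnt signalling, had 2.3, 2.79 and 2.44 CPM in RE replicates 1, 2 and 3, against 0.338, 0.893 and 0.306 CPM in DMSO replicates 1, 2 and 3 (2.36 ± 0.35, adjusted p = 0.045), low in all libraries but separate. Cdkn2a, the locus of p16 and p19Arf, had 4.87, 0.325 and 4.61 CPM in the RE libraries against 1.52, 0.112 and 1.17 CPM in the DMSO libraries (1.78 ± 0.24, adjusted p = 0.035), and reads of the 2 transcripts were counted together. Of mast cell, basophil and eosinophil genes 1 of 20 rose, beside 0.306% of all tested genes. It was Cpa3, the mast cell carboxypeptidase, with 2231, 1113 and 2211 CPM in the RE libraries against 1343, 648 and 1505 CPM in the DMSO libraries (0.69 ± 0.10, adjusted p = 0.039). That list, Cpa3 included, summed to 8112, 5643 and 8061 CPM with RE, against 6586, 4693 and 7587 CPM with DMSO. The median log2 difference of its tested genes was 0.29, 0.59 and −0.04 in pairs 1, 2 and 3. Ptms, the parathymosin gene, had 186, 119 and 160.0 CPM in the RE libraries against 96.7, 63.8 and 90.3 CPM in the DMSO libraries (0.89 ± 0.07, adjusted p = 0.0069) and Scin, an actin-severing protein, 439.8, 216 and 432 CPM in the RE libraries against 256, 145 and 258 CPM in the DMSO libraries (0.70 ± 0.07, adjusted p = 0.021). For 32 of the 46 risers the change was largest in replicate 1, and median log2 differences were 1.56, 1.22 and 1.18 in pairs 1, 2 and 3. Among fallers the medians were −1.07, −0.97 and −1.0.

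**Figure D3:**
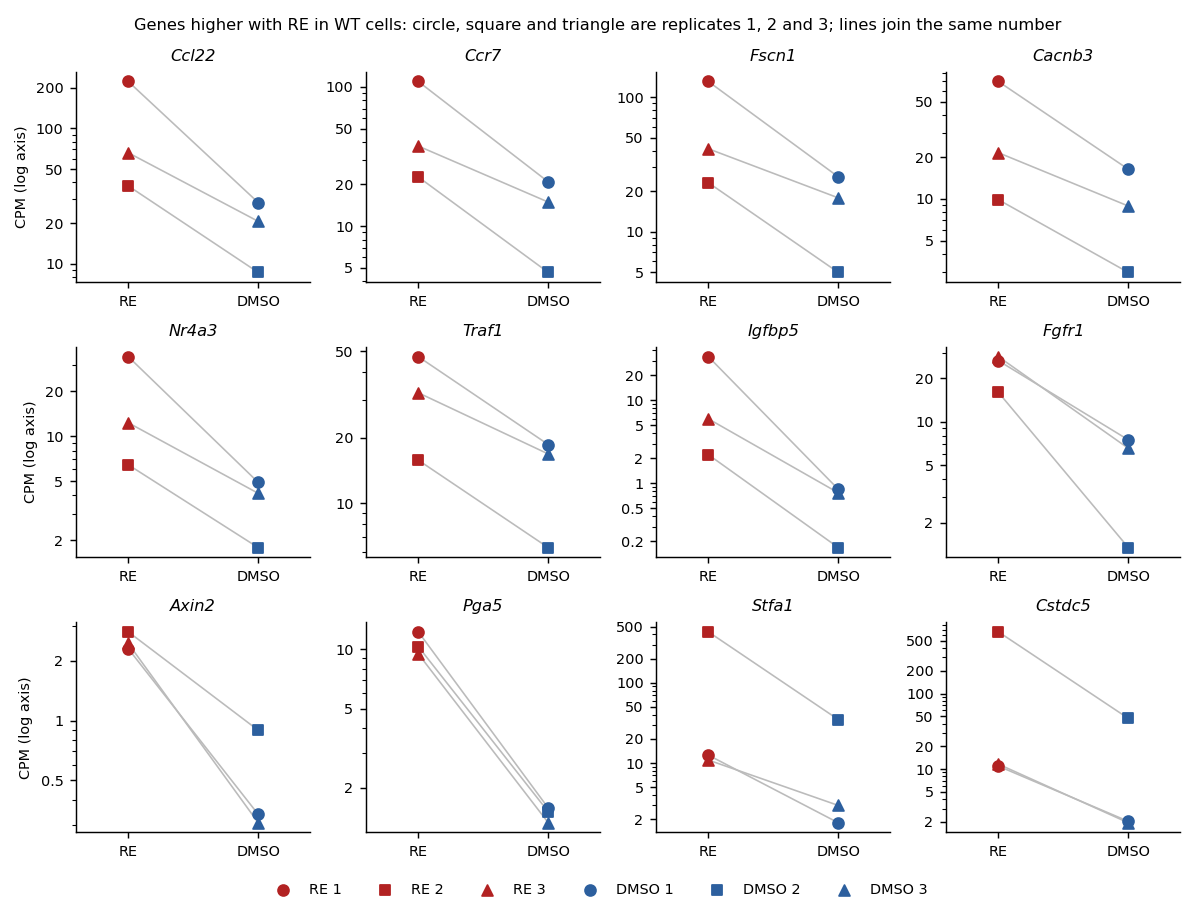
CPM on a log axis for 12 genes that rose with RE in the paired fit, laid out with RE left of DMSO, circle, square and triangle for replicates 1, 2 and 3 and lines joining the same number. For Ccl22, Ccr7, Fscn1, Cacnb3 and Nr4a3 RE 1 lies above all other libraries, and Stfa1 and Cstdc5 show replicate 2 above the others with RE and with DMSO.

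Growth genes were slightly lower with RE in most pairs, with no gene of these lists past the threshold in the paired fit. Of 28 DNA replication genes 21 were lower in all 3 pairs, of 28 mitosis genes 19, and of 36 ribosome biogenesis genes 28, beside 21.1% of all tested genes. Their medians were −0.18, −0.12 and −0.18 in the paired fit, and 0 genes of the 3 lists passed there or unpaired. In the paired fit of 6 libraries 0, 0 and 1 of them fell, beside 1.43% of all tested genes. Without replicate 2 the counts were 1, 1 and 2, beside 3.78%. In the paired fit without the library labelled WT C16 replicate 2 they were 3, 0 and 6, beside 2.65%. Myc, a driver of growth, had 105, 143 and 118 CPM in the RE libraries against 147, 166 and 147 CPM in the DMSO libraries (−0.34 ± 0.12, adjusted p = 0.33). It passed in the paired fit of 6 libraries (adjusted p = 0.047) and without replicate 2 (adjusted p = 0.0089). The cell cycle inhibitor gene Cdkn1a had 479, 219 and 427 CPM in the RE libraries against 449.8, 223 and 392 CPM in the DMSO libraries (0.06 ± 0.10, adjusted p = 0.84).

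Granule and monocyte genes leaned lower. Of 14 primary granule genes, which promyelocytes express, 10 were lower in all 3 pairs, beside 21.1% of all tested genes, and the median was −0.48. None of them passed in the unpaired or paired edgeR fit of 9 libraries, while 8 fell in the paired fit of 6, beside 1.43%. Mpo, the myeloperoxidase gene, had 618, 3043 and 716 CPM in the RE libraries against 1228, 4440.0 and 1363 CPM in the DMSO libraries (−0.82 ± 0.14, adjusted p = 0.062, and adjusted p = 0.017 with 6 libraries). Elane, neutrophil elastase, had 63.1, 1027 and 80.8 CPM in the RE libraries against 190.3, 1388 and 200.3 CPM in the DMSO libraries (−1.11 ± 0.22, adjusted p = 0.088, and adjusted p = 0.042 with 6). Of 24 monocyte and macrophage genes 12 were lower in all 3 pairs (21.1% of all tested genes) and 0 passed, while 3 fell in the paired fit of 6 libraries (1.43%) and 12 without replicate 2 (3.78%). The monocyte sum was 2870, 8653 and 3062 CPM with RE, against 5631, 7023 and 4543 CPM with DMSO, so it was lower with RE in replicates 1 and 3 and higher in replicate 2.

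Megakaryocyte and erythroid genes leaned higher. Of 20 megakaryocyte and platelet genes 16 were higher in all 3 pairs, beside 23.7% of all tested genes, and the median was 0.61. None passed in the unpaired or paired edgeR fit of 9 libraries, 10 rose in the paired fit of 6 (2.97% of all genes) and 15 without replicate 2 (4.24%). Pf4, a platelet chemokine gene, had 484, 37 and 546 CPM in the RE libraries against 339, 21.8 and 272 CPM in the DMSO libraries (0.77 ± 0.59, adjusted p = 0.64, and adjusted p = 0.02 with 6). Itga2b, the platelet integrin, had 1169, 183 and 1253 CPM in the RE libraries against 977, 146 and 912 CPM in the DMSO libraries (0.35 ± 0.32, adjusted p = 0.71, and adjusted p = 0.037 with 6). For both genes replicate 2 lay further from replicates 1 and 3 than RE lay from DMSO. Of 19 tested erythroid genes 13 were higher in all 3 pairs, beside 23.7%, with a median of 0.60, and 7 rose in the paired fit of 6 libraries, beside 2.97%. Gata1, the erythroid and megakaryocytic factor, had 91.4, 28.6 and 92.8 CPM in the RE libraries against 66.7, 22.6 and 63.4 CPM in the DMSO libraries (0.45 ± 0.22, adjusted p = 0.46, and adjusted p = 0.023 with 6). Erythroid genes summed to 718, 708 and 762 CPM with RE, against 683, 573 and 706 CPM with DMSO.

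**Figure D4:**
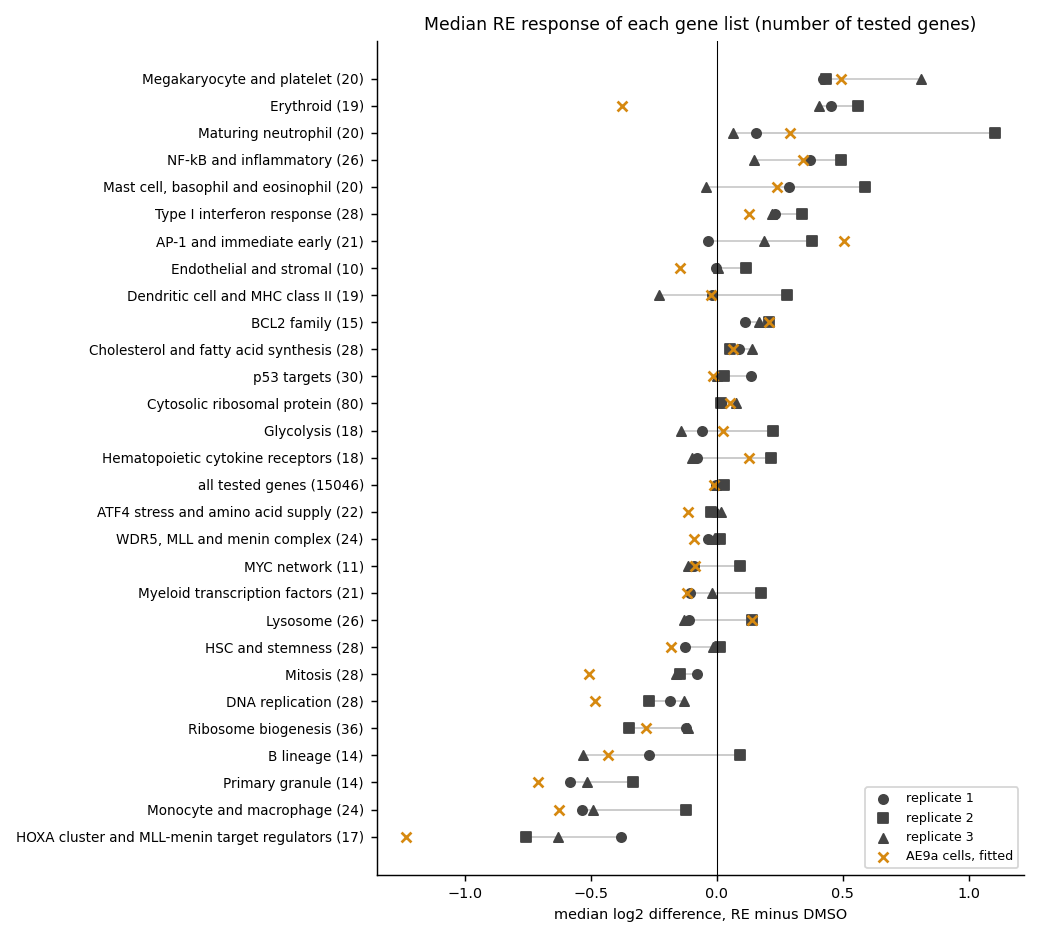
Median log2 difference between RE and DMSO for each list with at least 10 tested genes: circle, square and triangle are the medians of pairs 1, 2 and 3 in WT cells, and crosses are fitted medians in AE9a cells. The HOXA list has the lowest medians in pairs 2 and 3 and in AE9a cells, the 3 growth lists lie left of 0 in all pairs, and megakaryocyte and erythroid lists lie right of 0 in all pairs of WT cells.

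AE9a cells given RE or DMSO are separate samples and allow the WT response to be set beside another. Of the 31 fallers 30 were tested there, and 24 fell (80.0%, and 0.986% of the 2435 genes that fell in AE9a cells), beside 17.3% of genes tested in both genotypes. Of the 46 risers 45 were tested, and 18 rose (40.0%, and 1.05% of the 1712 that rose there), beside 12.2%. No gene was called in opposite directions, and 29 of 30 and 44 of 45 had the same sign. Adgrl4 changed by −3.31 ± 0.44 in AE9a cells, Hoxa6 by −2.19 ± 0.28, Arhgap32 by −1.92 ± 0.19 and Tcf4 by −1.21 ± 0.09. Several WT risers did not pass in AE9a cells: Ccr7 gave 0.77 (adjusted p = 0.093), Fscn1 0.46 (0.27), Axin2 0.17 (0.54), Fgfr1 0.81 (0.28) and Igfbp5 0.17 (0.9). The differences between the responses were not past the threshold for these 5 (adjusted p = 0.38, 0.32, 0.095, 0.62 and 0.29), so a difference from AE9a cells is not shown for them. The spread within the 9 WT libraries was wider, with a biological coefficient of variation of 0.329 unpaired and 0.137 paired. In the 9 AE9a libraries it was 0.103 and 0.0819. With only the 6 RE and DMSO libraries of WT cells it was 0.298 unpaired and 0.0905 paired. Without the 3 WT libraries numbered 2 it was 0.0636 and 0.0594, under the AE9a values.

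**Figure D5:**
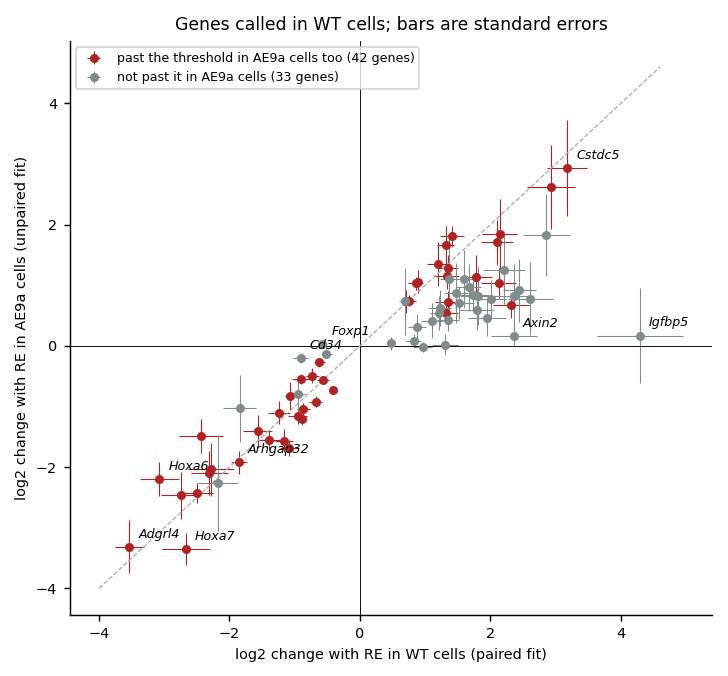
Log2 change with RE in WT cells (paired fit, horizontal) and in AE9a cells (unpaired fit, vertical) for the 75 genes called in WT cells and tested in both, with standard errors as bars and equal change as the dashed line; red genes (42) also passed in AE9a cells and grey genes (33) did not. Igfbp5 (4.29 in WT, 0.17 in AE9a cells) and Axin2 (2.36 and 0.17) lie far under the line, and Adgrl4 (−3.54 and −3.31) lies near it.

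A direct test of WT minus AE9a responses called 0 genes unpaired (676 at an unadjusted p under 0.05) and 7 with replicate blocks (0.0443% of 15809), while DESeq2 called 34 unpaired. Foxp1 fell in WT cells and did not pass in AE9a cells. It had 56.8, 65.8 and 56.5 CPM with RE against 87.9, 92.6 and 85.6 CPM with DMSO in WT cells, and 139, 150.4 and 151 CPM with RE against 139, 154 and 138 CPM with DMSO in AE9a cells. The log2 change was −0.57 in WT and 0.03 in AE9a cells, a difference of −0.64 ± 0.08 (adjusted p = 0.012). The other 6 genes passed in AE9a cells and not in WT cells. Ccny gave 0.03 in WT and 0.85 in AE9a cells (difference −0.85 ± 0.07, adjusted p = 0.0013). Anapc15, Vat1 and Tceal9 likewise had differences of −0.79, −0.71 and −0.65, and D17H6S56E-5 and Cdc25b, a cell cycle phosphatase, of 0.76 and 0.74. Growth lists in AE9a cells had 26 of 28 DNA replication, 28 of 28 mitosis and 33 of 36 ribosome biogenesis genes lower and past the threshold. Of all genes tested in both genotypes 17.3% fell in AE9a cells. The medians of these lists in AE9a cells were −0.49, −0.51 and −0.28. In the paired fit of WT cells 0 genes of these lists passed, and 0.206% of all tested genes fell. The difference between genotypes was not tested for a list. Erythroid genes had a median of −0.38 in AE9a cells and 0.60 in WT cells, of the opposite sign. Counts of each genotype came as a separate table, so genotype and table cannot be told apart in these differences.

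Set against C16, RE left WT cells with many differences, at doses that the labels do not give. RE exceeded C16 for 977 genes (6.49%) and lay under it for 812 (5.4%) in the unpaired fit, and for 2777 (18.5%) and 2368 (15.7%) in the paired fit. Without the library labelled WT C16 replicate 2 the counts in all were 2161 unpaired and 6136 paired. Adgrl4 had 1.18, 1.23 and 1.79 CPM in the RE libraries against 17.2, 19.2 and 17.2 CPM in the C16 libraries (−3.68 ± 0.22, adjusted p = 0.00043 paired). Hoxa6, Hoxa7 and Hoxa9 were lower with RE than with C16, with log2 differences of −3.12, −2.31 and −2.50 (adjusted p = 0.00098, 0.0049 and 0.0011), and C16 against the same DMSO libraries gave 0.04, −0.36 and 0.00 (adjusted p = 0.9, 0.44 and 1). Other genes were lower with RE than with C16 and passed for C16 against DMSO but not for RE against DMSO. They include Slc26a3, an anion exchanger, with 0.56, 0.715 and 0.922 CPM in the RE libraries against 9.98, 3.54 and 7.86 CPM in the C16 libraries, and the chemokine Ccl8, with 1.51, 0.195 and 0.325 CPM in the RE libraries against 8.6, 1.49 and 10.6 CPM in the C16 libraries. Lhfpl6 had 3.03, 0.195 and 1.41 CPM in the RE libraries against 18.8, 0.257 and 23.7 CPM in the C16 libraries and Dok6 had 1.91, 0.26 and 1.68 CPM in the RE libraries against 15.8, 0.308 and 17.3 CPM in the C16 libraries, low in replicate 2 with either compound. In the paired fit C16 against DMSO gave 2.83, 2.02, 3.36 and 4.21 for these 4 (adjusted p = 0.0039, 0.021, 0.004 and 0.0022), and RE against the same DMSO libraries gave −0.40, −1.48, 0.27 and 1.26 (adjusted p = 0.77, 0.34, 0.86 and 0.33). Genes higher with RE were led by the stefin group, Cstdc5 with 10.9, 656 and 11.6 CPM in the RE libraries against 0.563, 11.1 and 0.588 CPM in the C16 libraries and Stfa2 with 3.92, 61.6 and 4.34 CPM in the RE libraries against 0.461, 1.03 and 0.214 CPM in the C16 libraries, and by Pga5 with 12.3, 10.3 and 9.49 CPM in the RE libraries against 0.819, 0.154 and 1.02 CPM in the C16 libraries. For Cstdc5, Stfa2 and Pga5, C16 against DMSO gave −2.14, −1.59 and −1.18 (adjusted p = 0.011, 0.13 and 0.095 paired), beside 3.17, 3.23 and 2.86 for RE against DMSO (adjusted p = 0.02, 0.052 and 0.032). Against C16, Cstdc5 and Stfa1 passed paired (adjusted p = 0.00053 and 0.001) and not unpaired (0.14 and 0.15). Neutrophil genes summed to 4380, 26280 and 3392 CPM with RE, against 3870, 5036 and 2496 CPM with C16, and their part in the stefin difference was not tested. Contrasts of RE with DMSO and with C16 share the RE libraries.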

How the data were processed

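Whole-number counts of fragments per gene on GRCm39 were deposited by the authors, with no normalization. Per the file headers, featureCounts 1.6.2 counted read pairs over exons from primary alignments, without strand; the submitters' processing notes name featureCounts 2.0.3 instead, beside HISAT2 2.1.0, fastp 0.23.2, FastQC 0.11.9 and DESeq2, and which version made the counts is not known. Multi-copy genes and the 22 of 77 called genes that share exonic bases with another gene may hold shared reads. Besides those pointed out above, the called genes with such overlaps include Cd34, Cpa3, Fgfr1, Foxp1, Ifi47, Sesn1 and Traf1. The members, gene lists and named genes were chosen with earlier results of these data known.

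Genes kept by filterByExpr were TMM-scaled and tested with edgeR 4.0.16 (quasi-likelihood, Benjamini-Hochberg over all tested genes, threshold 0.05) in R 4.3.3, using the 9 WT libraries for both WT contrasts and all 18 for the genotype difference. The procedure was tested on simulated data in which replicate means were shared by all treatments. That simulation takes the pairing as given and cannot test whether the numbers pair samples. CPM used all assigned fragments and TMM factors; paired log2 differences used log2(CPM + 0.5). DESeq2 1.42.0, limma 3.58.1, other scalings, no filter, other library sets and leaving out each library were alternatives. Depth differed little between libraries, and 3 fragments correspond to 0.158 to 0.187 CPM in the 6 libraries.

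Replicate numbers come from the labels. Deviations from group means correlated at 0.707, 0.872 and 0.714 between RE and DMSO libraries of numbers 1, 2 and 3, so the numbers were taken to pair samples, but RE 1 with DMSO 3 gave 0.648, and the difference of replicates 1 and 3 correlated at only 0.132 between the groups, so the pairing rests on replicate 2. For RE and C16 the same-number values were 0.578, 0.734 and 0.676. The biological coefficient of variation was 0.329 without and 0.137 with the block.

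Named genes were the 10 largest rises and falls among calls whose higher group averaged 5 CPM or more (no overlap of libraries unpaired, the same sign in 3 pairs paired), up to 4 calls per list of 31 lists, 21 preset genes, and 5 each way for the other contrasts. Others are called genes or list members that were named after their values had been seen. Coordinates are 1-based from the count tables; promoters are RefSeq's on GRCm38.p6.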

Additional observations from a re-analysis of the deposited data

Results flagged for a closer look

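The response to RE differed between WT and AE9a cells, by the test of the difference with replicate blocks, for 7 genes. WT minus AE9a log2 values were −0.64 for Foxp1, −0.85 for Ccny, −0.79 for Anapc15, −0.71 for Vat1, −0.65 for Tceal9, 0.76 for D17H6S56E-5 and 0.74 for Cdc25b. Without blocks 0 genes passed. Foxp1 is the gene of the 7 that fell in WT cells, in 3 of 3 pairs. Genotype and count table go together, so their parts cannot be told apart.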

How the results depend on the processing

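For RE against DMSO in WT cells, RLE or upper-quartile scaling and no filter on low counts gave 4 genes each and limma-voom 3, against 4 in the unpaired fit. DESeq2 called 75, the replicate block 77, the block with DESeq2 409 and with limma-voom 132, the 6 libraries alone 0 (902 at an unadjusted p under 0.05), the block with 6 libraries 644, all 18 libraries 29, and the fit without the libraries numbered 2 1219, or 1303 with the block. Without the library labelled WT C16 replicate 2, added after the data had been seen, counts were 6 and, with the block, 1148. Leaving out 1 RE or DMSO library gave 0 to 25 genes. For RE against C16 (1789 genes), no filter gave 920, DESeq2 3172, the replicate block 5145 (DESeq2 4923, limma-voom 5316), 6 libraries 281, without replicate 2 6737 or 6592 with the block, all 18 libraries 4497, and leaving out 1 library 302 to 6136. For the difference between genotypes (0 genes), DESeq2 gave 34, the replicate block 7, without the WT libraries numbered 2 201, and leaving out 1 library 0 to 1. The cause of these moves was not tested.

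Direction turned for few named genes. Apart from the stefins, none of those that turned had passed the threshold in the unpaired or paired fit of 9 libraries. The ranges below take together the unpaired and paired fits that left out 1 RE or DMSO library. In the paired fits alone Stfa1 ranged from 2.24 to 3.29 and Cstdc5 from 2.45 to 3.41. Leaving out 1 library gave ranges of −0.17 to 5.98 for Stfa1, −0.59 to 6.83 for Cstdc5, −0.32 to 0.50 for Meis1, −0.73 to 0.009 for Mef2c, −0.10 to 0.071 for Wdr5, −0.07 to 0.085 for Kmt2a, −0.19 to 0.19 for Men1, −0.022 to 0.224 for Runx1, −0.164 to 0.349 for Cdkn1a, −1.816 to 0.172 for Mpo and −0.118 to 0.835 for Itga2b. Meis1 was also negative with limma-voom (−0.067), the replicate block (−0.076), the block with DESeq2 (−0.084), the block with 6 libraries (−0.051) and the block without the library labelled WT C16 replicate 2 (−0.044). Men1 gave −0.002 with RLE scaling and DESeq2, −0.001 without replicate 2 with or without the block, and −0.0 with upper-quartile scaling and with the block and DESeq2. Depth limits Hoxa6, Hoxa7 and Hoxa9, which were under 2 CPM in RE libraries.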
